A study of Homo sapiens with 15 samples.

Results

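The proteasome genes are the 44 genes of the deposited expression table whose symbol begins with PSMA to PSMG and a number, leaving out pseudogenes, antisense RNAs and other names with a hyphen or ending in P, and which reached 1 TPM in at least 3 of the 15 libraries. TPM is a length-normalized share of the transcripts of a library, scaled to a common total. In all 48 names met the rule on symbols, and 12950 of the 63241 genes in the table met the same filter on level. The 4 names that did not were PSMA8 and PSMB11, which are known for the testis and the thymus, and PSMB8 and PSMB9, which are made under interferon.

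The proteasome is the protease that degrades proteins tagged with ubiquitin. Its core particle is a barrel of alpha rings, encoded by PSMA genes, around beta rings, encoded by PSMB genes, of which PSMB5, PSMB6 and PSMB7 carry the active sites; in the immunoproteasome PSMB8, PSMB9 and PSMB10 take their places. The regulatory cap holds a ring of ATPases that unfold the substrate (PSMC genes) and non-ATPase subunits (most PSMD genes). Some of these non-ATPase subunits bind or strip ubiquitin. PSME genes encode other activators that dock on the core, and PSMF1 an inhibitor. PSMG1 to PSMG4 with PSMD5, PSMD9 and PSMD10 encode the chaperones that assemble core and cap. In liver cells the complex removes misfolded and short-lived proteins, and cells raise many of its genes together through the transcription factor encoded by NFE2L1.

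The study measured RNA in cultures labelled HepG2, a human hepatoma line used as a hepatocyte model, in 5 groups of 3 biological replicates. NC was the untreated blank control, FFA received 500 µM free fatty acids, and FCL, FCM and FCH received these fatty acids together with 25, 50 and 100 µM of C3R (cyanidin-3-rutinoside, an anthocyanin pigment of fruit). No group was given C3R without fatty acids. The labels name no culture date or passage for the replicates, so the p-values below measure the spread between these cultures.

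The number of genes at 1 TPM or more lay between 11268 and 12293 per library, and the depth behind the values is unknown, since TPM do not keep it. Within groups, the correlation of log2(TPM + 1) between libraries was 0.966 or more over all genes tested. The lowest value was in FCM and the highest, 0.987, between FCH replicates 1 and 3. Of 9 hepatocyte markers 5 (AFP, APOB, HNF4A, TTR and FGB) were under 1 TPM in every library, which goes against the labelled cell type. The other 4 were ALB at 0.0947 to 1.675 TPM, APOA1 at 6.18 to 14.7, SERPINA1 at 6.95 to 14.2 and TF at 2.71 to 6.07. Of 9 leukocyte markers 7 were under 1 TPM in every library, PTPRC among them at 0.01 TPM or less. The other 2 were CD68 at 52.8 to 253.5 TPM and CSF1R at 1.38 to 5.56. All 5 endothelial markers were under 1 TPM. Of 6 stellate cell markers COL1A2 and LRAT were under 1 TPM, while COL1A1 lay between 30.8 and 62.8 TPM, ACTA2 between 7.97 and 15.8, DES between 2.11 and 4.83 and PDGFRB between 0.824 and 2.43. No label mentions a batch adjustment, but the deposited values, those of all 44 genes included, had the pattern left when FCH replicate 3 alone is treated as a separate batch. By that reading the library kept 41.6% of its distance from FCH replicates 1 and 2, averaged. On the same reading, the FCH correlations, SDs and overlap counts come from values drawn together, which also entered the shared estimate of spread. The labels number the libraries 1 to 15 straight through the groups, so that 12 to 15 are FCM replicate 3 and the 3 FCH libraries. No label or header marks these as a batch, and a term for them was tried only as an alternative.

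The 44 genes summed to between 5466 and 6058 TPM in the 15 libraries. The sum was 5823 ± 254 TPM in NC, 5765 ± 228 in FFA, 5652 ± 170 in FCL, 5598 ± 83.9 in FCM and 5595 ± 116 in FCH (mean ± SD, n = 3). The group ranges overlapped: every FCL, FCM and FCH library was below NC replicates 2 and 3, while NC replicate 1 lay among them. In a bulk sample, fewer cells with a transcript and less of it per cell cannot be told apart.

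Subunits that stand in equal number in the complex differed widely in TPM. In the alpha ring, means over all libraries ran from 26.1 TPM for PSMA3 to 285 TPM for PSMA7, and within a library the highest member exceeded the lowest by 9.74 to 29.4 times. In the beta ring they ran from 30.1 TPM for PSMB2 to 654 TPM for PSMB3, 11.5 to 27.0 times within a library. The ATPases ran from 8.69 TPM for PSMC6 to 197 TPM for PSMC3, and the other cap subunits from 8.82 TPM for PSMD1 to 286 TPM for PSMD2. The chaperones of core assembly, PSMG1 to PSMG4, lay closer together, between means of 25.5 TPM for PSMG2 and 75.3 TPM for PSMG3. Among the activators PSME1, which encodes a subunit of the activator linked to antigen processing, had 157 TPM, and PSME4, which encodes a large activator of the nucleus, 4.61 TPM.

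**Figure D1:**
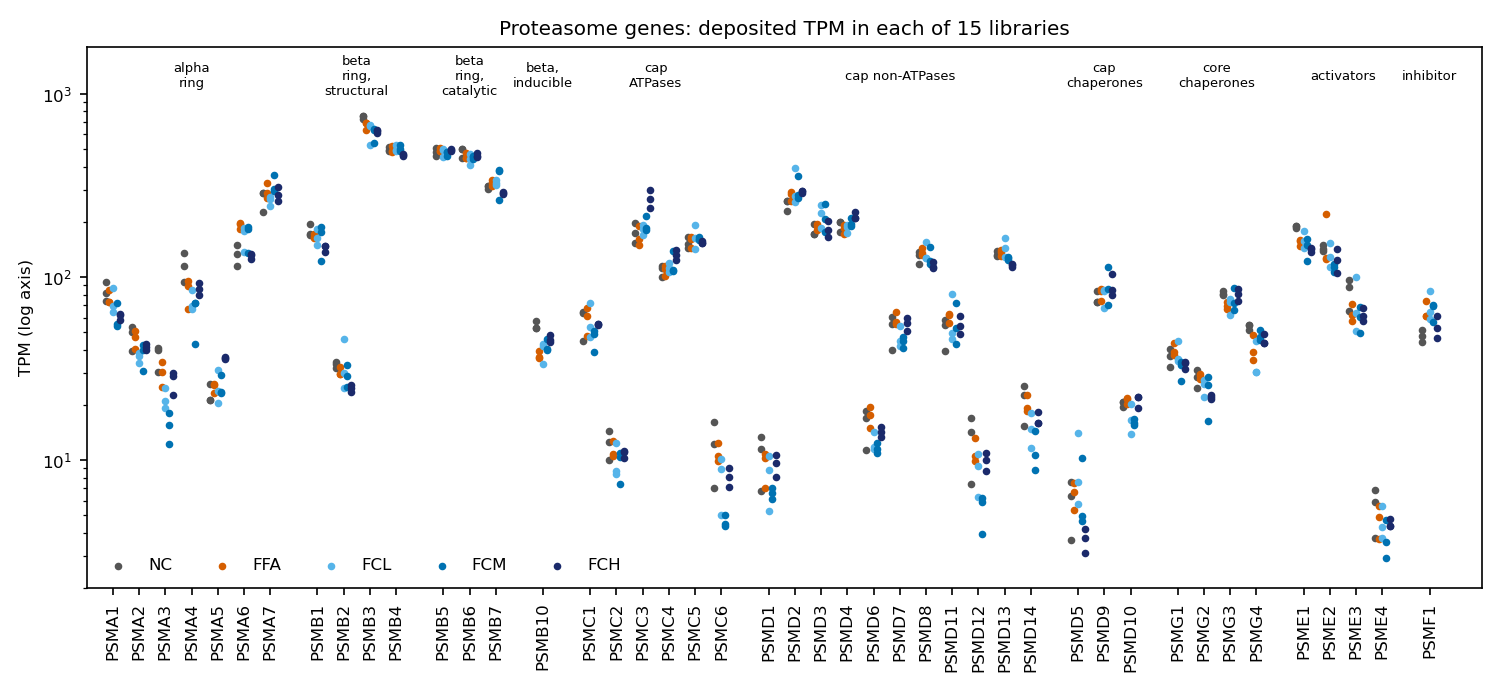
TPM (log axis) of each of the 44 proteasome genes in each of the 15 libraries, grouped by role and coloured by group, 3 points a group. The order of the genes is much the same in every group, with PSMB3 at the top near 654 TPM and PSME4 at the bottom near 4.61 TPM.

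The genes spanned a narrower range across the 5 groups than the median gene, and also varied less within groups. The range of the 5 group means had a median of 0.37 on the log2 scale over the 44 genes and 0.47 over all tested genes, and it was under 0.5 for 30 of the 44 genes (68.2%) against 54.7% of all tested genes. The SD within groups had a median of 0.18 over the 44 genes and 0.24 over all tested genes, and the difference was not tested. Members were not matched to genes of like TPM. All of them but PSME4 had a mean of 5 TPM or more, as had 7613 of the 12950 tested genes. PSMB5, the subunit with the chymotrypsin-like active site, moved least: its group means spanned 0.06. Its TPM were 458, 508 and 482 in NC, 484, 504 and 485 in FFA, 495, 450 and 496 in FCL, 482, 480 and 454 in FCM, and 493, 487 and 501 in FCH. The FCM libraries lay just below those of FFA and FCH, and the other groups overlapped. PSMC5, an ATPase, PSMB4, a structural beta subunit, and PSMB6, the subunit with the caspase-like site, spanned 0.10, 0.12 and 0.14. At the other end stood PSMA3 (1.22), PSMC6 (1.11), PSMD12 (1.08) and PSMD5 (1.04), and the first 3 of these were lowest in FCM and highest in NC.

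The promoters of 5 members that the comparisons below turn on are shown for PSMB10, which was lower with fatty acids, for PSMA3 and PSMC6, which were lower in FCM, and for PSMC3 and PSMA5, which were highest in FCH. Each line gives the 150 bases before the transcription start as RefSeq (GRCh38.p14) places it, read 5′ to 3′ on the strand of the gene. Capitals mark matches, on either strand, to GAAA, any 2 bases and GAAA (the core of interferon response elements) in PSMB10, and to CCAAT, the box bound by NF-Y, in the others.
PSMB10: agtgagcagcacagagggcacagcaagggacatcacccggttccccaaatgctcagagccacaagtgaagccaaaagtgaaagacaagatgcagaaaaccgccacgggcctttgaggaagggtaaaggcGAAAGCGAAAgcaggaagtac
PSMA3: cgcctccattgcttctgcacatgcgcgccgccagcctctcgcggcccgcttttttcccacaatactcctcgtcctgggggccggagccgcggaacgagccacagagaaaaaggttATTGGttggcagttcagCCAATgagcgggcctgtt
PSMC6: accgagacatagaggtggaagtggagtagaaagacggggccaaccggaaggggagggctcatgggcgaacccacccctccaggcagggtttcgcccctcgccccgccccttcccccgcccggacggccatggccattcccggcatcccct
PSMC3: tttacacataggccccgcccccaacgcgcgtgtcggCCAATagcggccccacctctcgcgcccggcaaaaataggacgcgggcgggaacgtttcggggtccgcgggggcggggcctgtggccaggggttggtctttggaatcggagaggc
PSMA5: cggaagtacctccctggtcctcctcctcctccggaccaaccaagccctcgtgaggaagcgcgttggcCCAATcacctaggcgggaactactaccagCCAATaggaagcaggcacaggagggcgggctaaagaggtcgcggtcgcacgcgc
These stretches lie at chr16:67936851-67937000 on the minus strand for PSMB10, chr14:58244693-58244842 on the plus strand for PSMA3, chr14:52707050-52707199 on the plus strand for PSMC6, chr11:47426440-47426589 on the minus strand for PSMC3 and chr1:109426449-109426598 on the minus strand for PSMA5. They hold 2 CCAAT matches in PSMA3, 2 in PSMA5, 1 in PSMC3 and none in PSMC6, so neither the members lower in FCM nor those higher in FCH shared a match that the others lacked. Over whole windows, from 250 bases before to 50 after the start, 38 of the 44 members were matched by symbol to 46 windows. CCAAT was found in 39.1% of these and in 34.6% of all 35116 windows, and TGACNNNGC, the core of the antioxidant response element used by NFE2L1 and NFE2L2, in 30.4% against 13.3%. The interferon element core was searched only after the PSMB10 stretch had been read, and was found in 13.0% of member windows against 3.6% of all windows. Its 6 members were PSMA4, PSMB4, PSMB10, PSME1, PSME2 and PSMG4. Letters of this motif do not overlap those of the other motifs in the stretches shown. A match describes the letters and shows no binding.

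The first question is what fatty acids without C3R did to these genes, read from FFA against NC. PSMB10, the inducible subunit with the trypsin-like active site, fell and PSMA6, an alpha ring subunit, rose; the other 42 genes did not pass the test. The 2 calls were 4.55% of the 44 genes, while 7.37% of all tested genes were called (adjusted p under 0.05, limma with Benjamini-Hochberg adjustment over all tested genes), 5.47% higher and 1.91% lower. The median log2 change of TPM + 1 over the 44 genes was -0.0045, against 0.061 over all tested genes, with 21 changes above 0 and 23 below.

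PSMB10 (ENSG00000205220) had 52.8, 57.1 and 52.7 TPM in NC, 36.6, 39.5 and 36.2 in FFA, 42.2, 33.6 and 42.8 in FCL, 45.9, 40.5 and 39.8 in FCM, and 48.3, 44 and 45.4 in FCH. Every library given fatty acids was below every NC library, and the FCH libraries were above the FFA libraries. From NC to FFA it fell by 0.52 on the log2 scale (SE 0.11, adjusted p = 0.0114, limma). Over 26 alternatives this change lay between -0.66 and -0.48, and the adjusted p passed 0.05 without NC replicate 2 (0.0550), FFA replicate 1 (0.0550) or FFA replicate 3 (0.0573).

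PSMA6 (ENSG00000100902) had 115, 133 and 149 TPM in NC, 194, 196.5 and 183 in FFA, 179, 186 and 136 in FCL, 188, 183 and 134 in FCM, and 133, 126 and 132 in FCH. FFA stood above NC and above FCH, which lay within the NC range, while FCL and FCM each had 2 libraries near FFA and replicate 3 near NC. The rise from NC to FFA was 0.53 (SE 0.14, adjusted p = 0.0364, limma). The call did not hold without NC replicate 1 (adjusted p = 0.165), NC replicate 2, or any single FFA or FCH library, nor with median-of-ratios scaling (0.112) or quantile normalization (0.153). PSMA6 was 0.55 lower in FCH than in FFA (SE 0.14, adjusted p = 0.107), which did not pass the test.

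**Figure D2:**
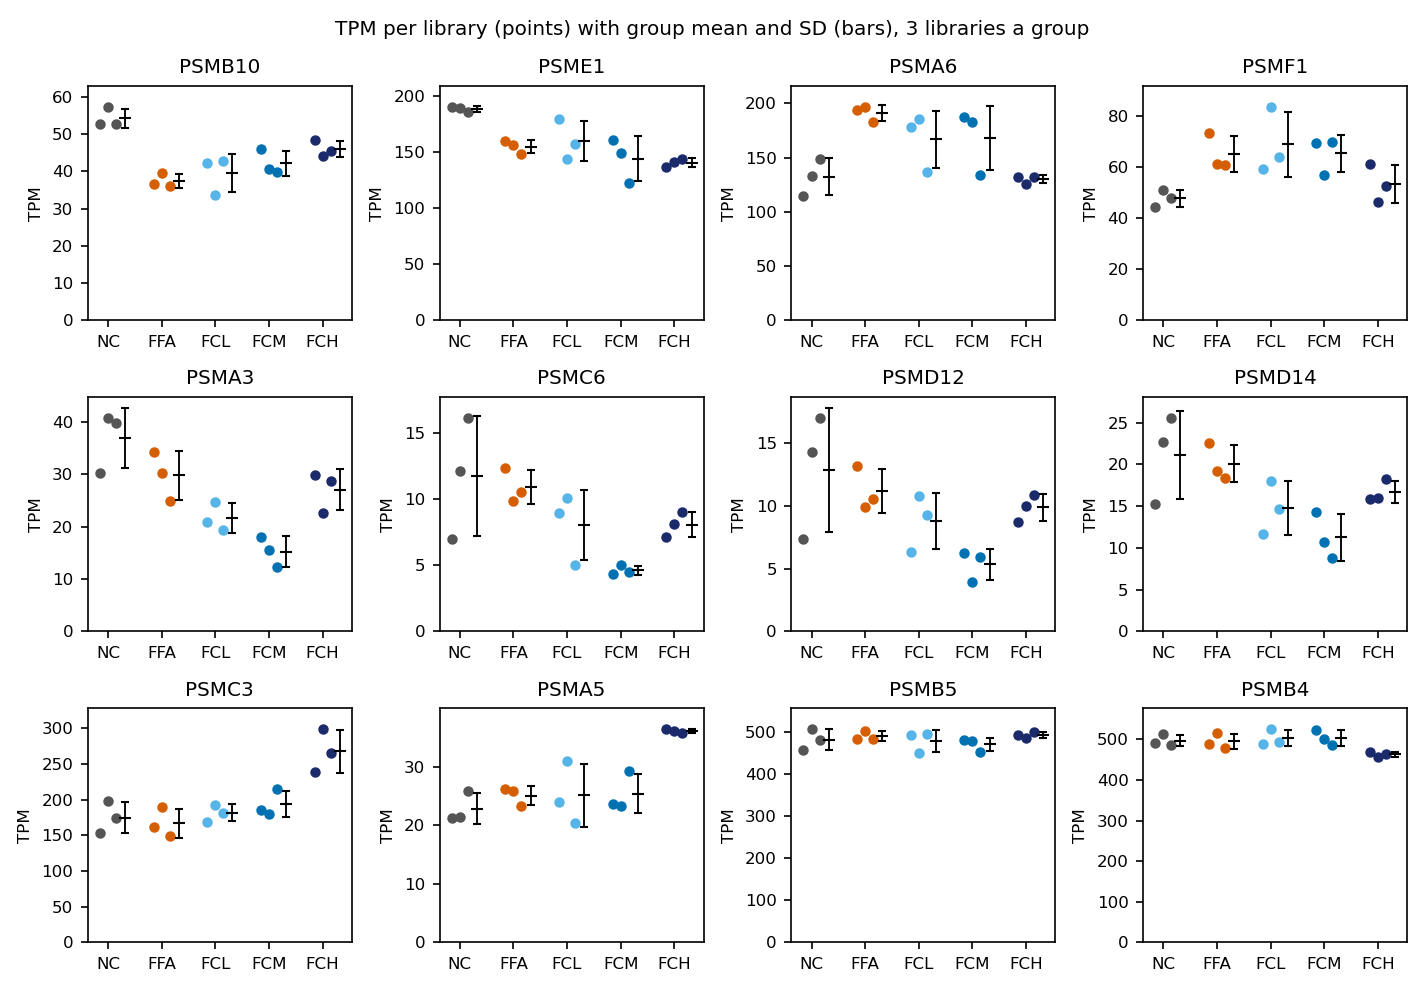
TPM of 12 proteasome genes in every library, from 0, by group, with the mean and SD of each group beside its 3 points. PSMB10 is lower in every library given fatty acids than in NC, PSMA3, PSMC6, PSMD12 and PSMD14 are lowest in FCM, PSMC3 and PSMA5 are highest in FCH, and PSMB5 and PSMB4 hardly move.

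Further members with an unadjusted p under 0.05 between FFA and NC were PSMF1, PSMG4, PSME1 and PSMA4, so that 6 of 44 met this level (13.6%, against 21.5% of all tested genes). PSMF1, the inhibitor, had 44.3, 51.2 and 47.8 TPM in NC, 73.4, 61.3 and 61.0 in FFA, 59.2, 83.5 and 64.1 in FCL, 69.4, 56.9 and 69.9 in FCM, and 61.2, 46.45 and 52.6 in FCH. All FFA, FCL and FCM libraries exceeded all NC libraries, and the FCH libraries overlapped NC. Its change of 0.44 in FFA (SE 0.15, adjusted p = 0.0887, limma) was not called, and that of 0.51 in FCL against NC was (adjusted p = 0.0434). The FCL call was lost in 12 of 26 alternatives, among them leaving out any single NC library, with adjusted p up to 0.145 (limma).

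PSME1, a subunit of the activator that interferon induces, had 190, 189 and 185 TPM in NC, 159, 156 and 148 in FFA, 179, 144 and 157 in FCL, 161, 149 and 122 in FCM, and 136, 141 and 144 in FCH. Every library given fatty acids was below the NC libraries, as for PSMB10. Its log2 change of -0.28 in FFA (SE 0.11, adjusted p = 0.148) was not called, nor was that of -0.24 in FCL, while it fell by 0.39 in FCM (adjusted p = 0.0321) and by 0.42 in FCH (0.0419) against NC. Its partner PSME2 had 149, 139 and 142 TPM in NC and 127, 220 and 126 in FFA, overlapping groups with a change of 0.09 (SE 0.18, adjusted p = 0.841). The nuclear activators PSME3 and PSME4 had changes of -0.37 (SE 0.21) and -0.17 (SE 0.21) in FFA and were not called.

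PSMG4, a chaperone of core assembly, had 54.9, 51.1 and 54.9 TPM in NC, 35.0, 47.9 and 38.7 in FFA, 44.7, 30.1 and 30.4 in FCL, 45.1, 46.8 and 51.0 in FCM, and 48.6, 43.4 and 43.6 in FCH. All 12 libraries given fatty acids were below the NC libraries. It fell by 0.62 in FCL against NC (SE 0.15, adjusted p = 0.0192, limma) and was not called in FFA (-0.41, adjusted p = 0.121).

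Groups of FFA and NC did not overlap for 8 of the 44 genes (18.2%, against 29.7% of all tested genes), 3 higher and 5 lower in FFA (19.7% and 9.95% of all tested genes). PSMB10, PSME1, PSMG4 and PSMA4, which were the 4 members lower in FFA at an unadjusted p under 0.05, were also 4 of the 6 members with the interferon element core in their window; of the other members with the motif PSMB4 changed by -0.01 and PSME2 by 0.09. The motif was chosen with these values in view. Over all tested genes matched to a window, the 331 genes with the motif had a median change of 0.08 and the 9067 without it 0.07, with 1.81% and 1.70% called lower. The summed level of the 9 leukocyte markers was 54.6 to 63.6 TPM in NC and 144 to 211 TPM in FFA, nearly all of it CD68, and the part of this in the changes of PSMB10 and PSME1 was not tested.

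The share of the inducible subunit within the trypsin-like pair followed PSMB10. PSMB10 made up 14.5%, 15.4% and 14.9% of the TPM of PSMB7 and PSMB10 together in NC, 10.4%, 10.4% and 10.0% in FFA, 11.1%, 9.33% and 11.8% in FCL, 10.8%, 9.61% and 13.1% in FCM, and 14.4%, 13.5% and 13.6% in FCH. FFA was below NC and below FCH in every library, and FCH was below NC. The means differed by -4.62 percentage points between FFA and NC and by 3.51 between FCH and FFA. The exact two-sided permutation test gave p = 0.1 for each, the smallest that 3 against 3 libraries allow, and 0.35 after adjustment over the 21 comparisons of the 3 pairs. With this inferred adjustment of FCH replicate 3 undone the second difference was 3.33 points. The other inducible subunits were almost absent: PSMB8 made up at most 0.178% of its pair with PSMB5 and PSMB9 at most 0.0873% of its pair with PSMB6.

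**Figure D3:**
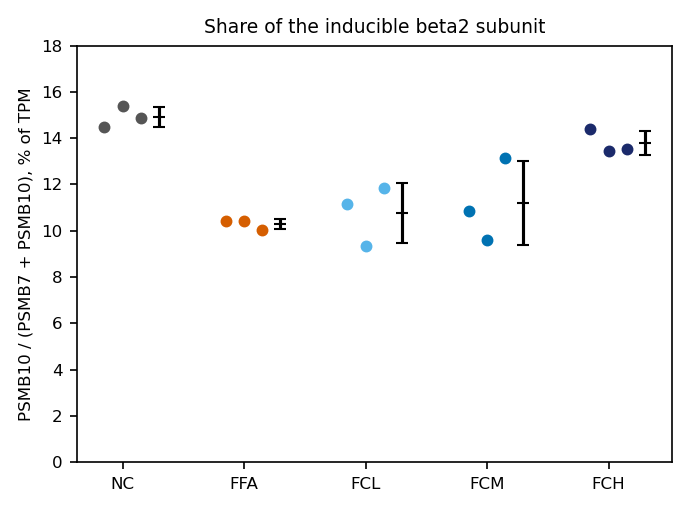
PSMB10 as a percentage of the summed TPM of PSMB7 and PSMB10 in each library, by group, with the mean and SD of 3 libraries beside the points. NC lies between 14.5% and 15.4%, FFA between 10.0% and 10.4%, and FCH between 13.5% and 14.4%.

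FCL against FFA gives the effect of adding 25 µM C3R to the fatty acids. None of the 44 genes was called by limma, and 0.00772% of all tested genes were. An unadjusted p under 0.05 was met by 5 genes, all lower in FCL (11.4%, against 5.15% of all tested genes): PSMA2, PSMA3, PSMD6, PSMD7 and PSMD10, with changes between -0.45 and -0.32. Groups did not overlap for 6 genes, all lower (13.6%, against 7.73% of all tested genes, 3.37% higher and 4.36% lower). All 7 alpha ring genes had a change below 0, as had 28 of the 44 genes and 6744 of the 12950 tested genes. Their median was -0.18, against -0.01 over all tested genes, and 2 of the 7 had an unadjusted p under 0.05. Over the 44 genes these changes had a Spearman correlation of 0.586 with the GC content of the transcripts, and the part of this in them was not tested. The 95% intervals of the 44 changes had a median half-width of 0.31.

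FCM against FFA gives it at 50 µM. PSMA3, an alpha ring subunit, and PSMC6, an ATPase of the cap, fell to about 0.53 and 0.47 of their FFA level on the scale of TPM + 1, and no member rose. The 2 calls were 4.55% of the 44 genes; 1.9% of all tested genes were called, 0.0695% higher and 1.83% lower. At an unadjusted p under 0.05 stood 11 genes, all of them lower (25.0%, against 19.1% of all tested genes): 3 of 7 alpha subunits, 1 of 6 ATPases, 4 of 11 other cap subunits, 1 of 4 activators and 1 each of the core and cap chaperones, and none of the beta subunits. Groups did not overlap for 13 genes (29.5%, against 23.9%), PSMB10 higher and 12 lower (4.53% and 19.4% of all tested genes). The median log2 change was -0.10, against -0.07 over all tested genes.

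PSMA3 (ENSG00000100567) had 30.3, 40.7 and 39.7 TPM in NC, 34.2, 30.3 and 25.0 in FFA, 20.95, 24.8 and 19.3 in FCL, 18.02, 15.6 and 12.2 in FCM, and 29.85, 22.6 and 28.7 in FCH. FCM lay below all other groups, FCL lay below FFA and NC, and FCH overlapped FFA. It fell by 0.93 from FFA to FCM (SE 0.18, adjusted p = 0.0244, limma), by 1.22 from NC to FCM (SE 0.18, adjusted p = 0.000491) and by 0.74 from NC to FCL (SE 0.18, adjusted p = 0.0172). The fall from NC to FCM was called in all 26 alternatives. The fall from FFA to FCM was not called without FFA replicate 1 (adjusted p = 0.159), FFA replicate 3 (0.0656), FCM replicate 2 (0.0821) or FCM replicate 3 (0.0659), nor with a term for libraries 12 to 15 (0.0688). The antisense neighbour PSMA3-AS1 had between 2.18 and 4.72 TPM, and the use of strand in counting is not given in the sources used here, so reads of the pair may not be told apart.

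PSMC6 (ENSG00000100519) had 7.00, 12.2 and 16.1 TPM in NC, 12.4, 9.87 and 10.5 in FFA, 8.98, 10.1 and 5.03 in FCL, 4.38, 5.02 and 4.48 in FCM, and 7.12, 8.10 and 9.05 in FCH. FCM was below every library of the other groups. From FFA to FCM it fell by 1.08 (SE 0.25, adjusted p = 0.0439, limma), a call that was kept in 10 of 26 alternatives and lost without any single FFA, FCM or FCH library. Against NC it fell by 1.11 (adjusted p = 0.0119).

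PSMD14, the cap subunit that cuts ubiquitin from substrates, and PSMD12, a structural subunit beside it in the lid of the cap, went with them. PSMD14 had 15.3, 22.7 and 25.5 TPM in NC, 22.6, 19.2 and 18.4 in FFA, 11.6, 18.02 and 14.7 in FCL, 14.3, 10.7 and 8.79 in FCM, and 15.9, 16 and 18.2 in FCH. PSMD12 had 7.39, 14.3 and 17.0 TPM in NC, 13.2, 9.87 and 10.5 in FFA, 6.32, 10.8 and 9.28 in FCL, 6.24, 3.93 and 5.89 in FCM, and 8.74, 10.0 and 10.9 in FCH. For each of these genes FCM lay below NC, FFA and FCH without overlap. Against FFA the changes of -0.80 for PSMD14 (adjusted p = 0.0564) and -0.95 for PSMD12 (0.0647) missed the threshold, and against NC PSMD14 fell by 0.85 (0.0157) and PSMD12 by 1.08 (0.0151).

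**Figure D4:**
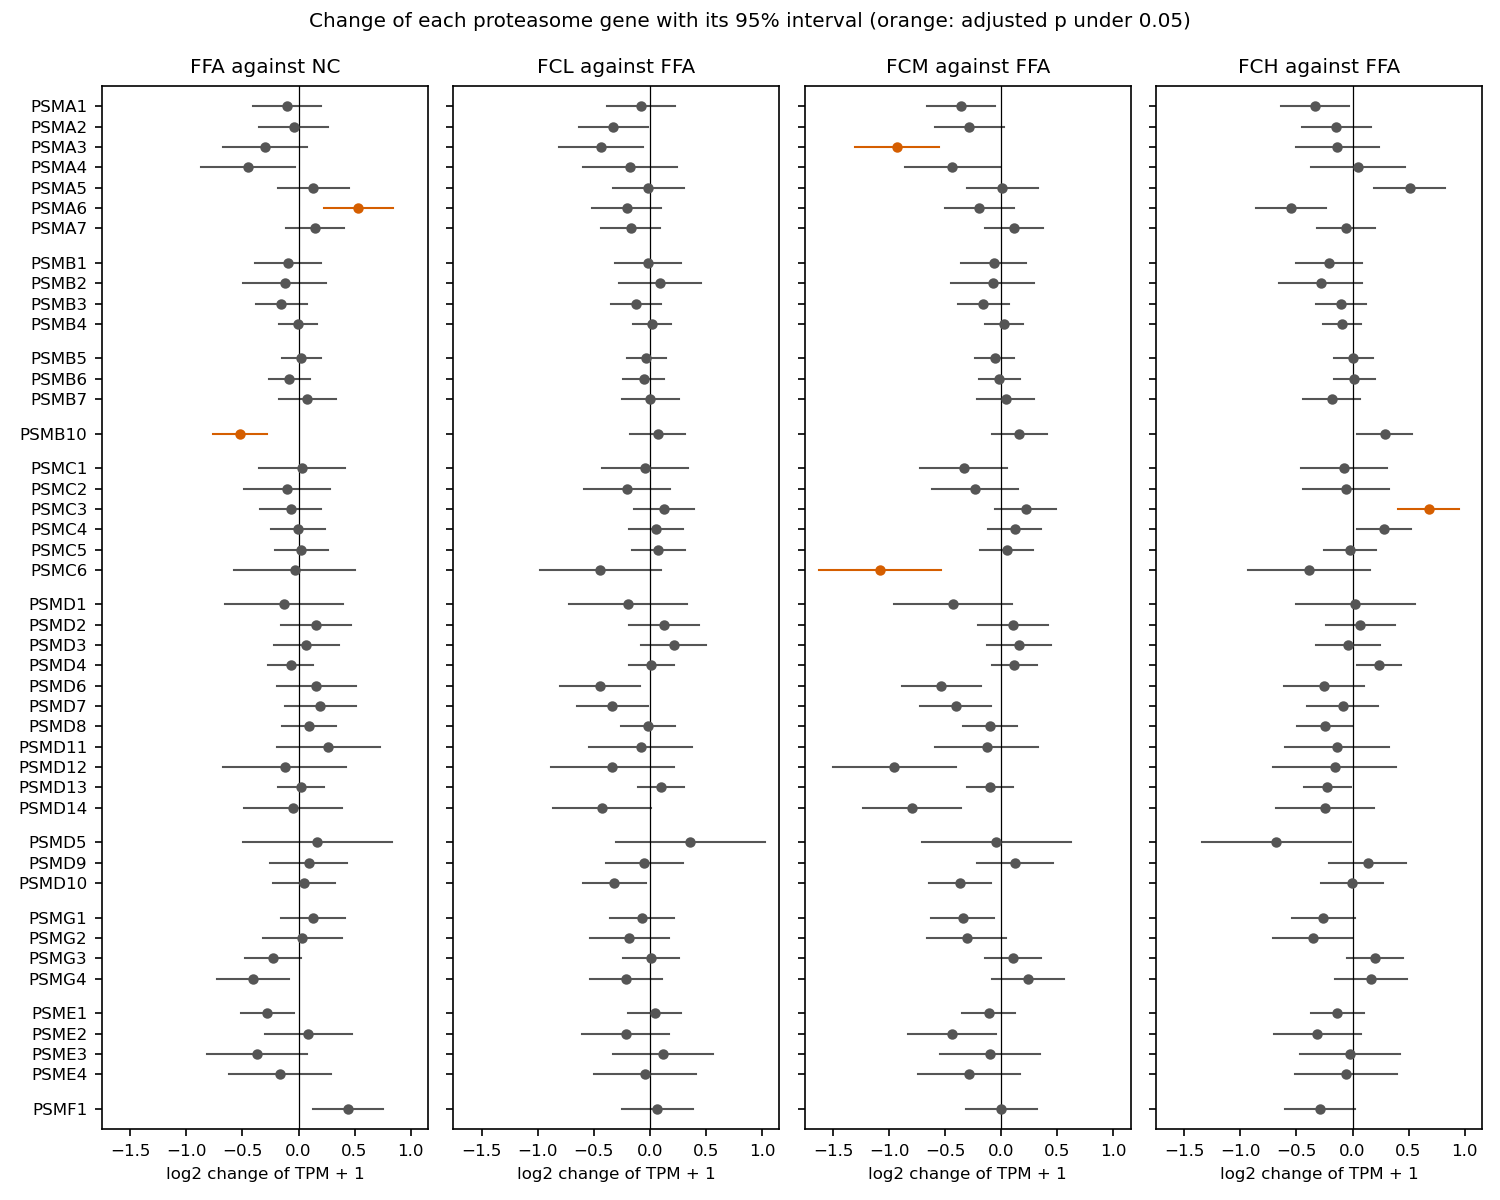
Log2 change of TPM + 1 of each of the 44 genes, in the order of their roles, with FFA set against NC and FCL, FCM and FCH against FFA, with 95% intervals from the limma fit; orange marks an adjusted p under 0.05. The 2 called changes of FCM, PSMA3 and PSMC6, lie near -1, and none of the constitutive beta subunits is marked in any panel.

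The members lower in FCM were mostly those of low GC content. Across the 44 genes, the change from FFA to FCM and the GC content of the annotated transcripts had a Spearman correlation of 0.757, and across 12485 tested genes with a GC content one of 0.636; genes are not independent replicates, and all points share the same 6 libraries. The 22 members with the lower GC content had a median change of -0.34 and the other 22 one of 0.04. PSMA3 and PSMC6 have a GC content of 40.2%, PSMD12 41.2% and PSMD14 41.4%, beside 62.0% for PSMB10. After each library's trend over transcript GC content and length was taken out, the FCM against FFA changes of PSMA3 and PSMC6 were -0.46 (adjusted p = 0.110) and -0.60 (0.135), and PSMA3 against NC stayed called at -0.65 (0.0043). The falls of PSMC6, PSMD12 and PSMD14 in FCM against NC also stayed called. In single libraries the correlation of deviations from the gene mean with GC content over all genes ran from -0.512 in NC replicate 3 to 0.613 in FCM replicate 3. The trend was not confined to FCM: over the 44 genes the correlation was 0.0648 for FFA against NC, 0.586 for FCL against FFA and 0.395 for FCH against FFA, and between 0.391 and 0.544 for the C3R groups against NC.

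**Figure D5:**
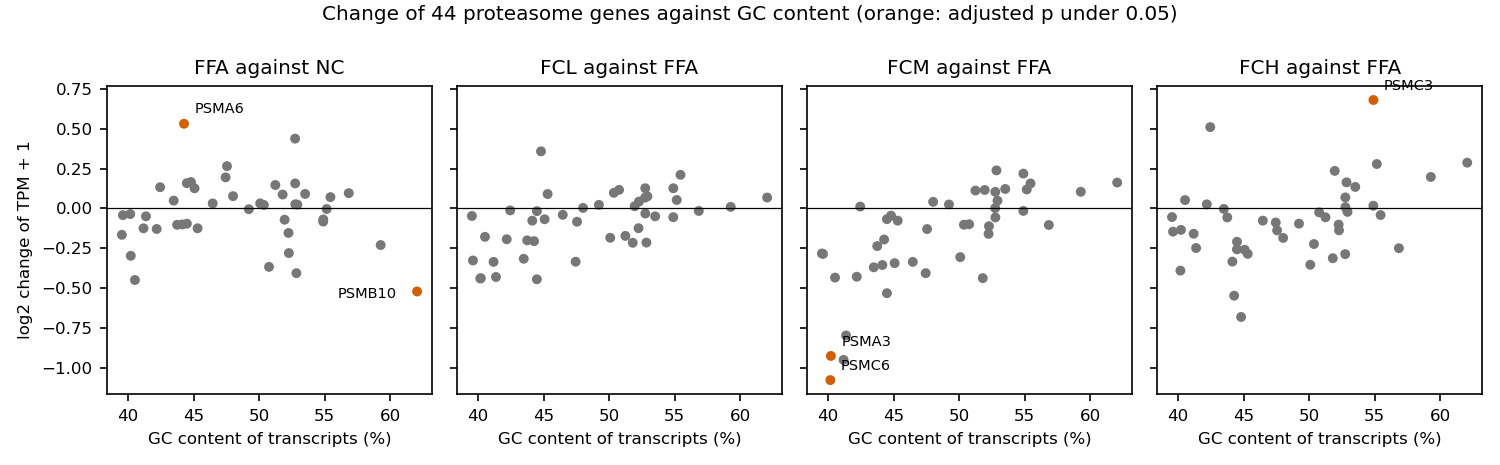
Log2 change of TPM + 1 of the 44 genes against the GC content of their transcripts, with FFA set against NC and FCL, FCM and FCH against FFA; orange marks an adjusted p under 0.05. The Spearman correlation is 0.0648 for FFA against NC, 0.586 for FCL, 0.757 for FCM and 0.395 for FCH.

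FCH against FFA gives it at 100 µM. PSMC3, an ATPase of the cap, rose, and no other member was called. This was 2.27% of the 44 genes, beside 0.193% of all tested genes, 0.108% higher and 0.0849% lower. An unadjusted p under 0.05 was met by 11 genes (25.0%, against 15% of all tested genes), 5 higher and 6 lower. In the deposited values groups did not overlap for 20 genes (45.5%, against 33.3%), 6 higher and 14 lower (11% and 22.4% of all tested genes).

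PSMC3 (ENSG00000165916) had 153, 197 and 174 TPM in NC, 162, 189 and 149 in FFA, 169, 193 and 182 in FCL, 186, 180 and 215 in FCM, and 238, 298 and 265 in FCH. The FCH libraries exceeded all 12 others. It rose by 0.68 against FFA (SE 0.13, adjusted p = 0.0467, limma) and by 0.61 against NC (SE 0.13, adjusted p = 0.0113). Its slope on the C3R dose over the 12 libraries given fatty acids was 0.68 per 100 µM (SE 0.12, adjusted p = 0.0418), and it was the 1 member called among 44 (2.27%), beside 0.371% of all tested genes. The slope was not called in 12 of 23 alternatives, among them the slope without FFA (0.77, adjusted p = 0.192), the replicate block (0.0897), and leaving out any single FCH library, FFA replicate 1 or 3, or FCL replicate 1 or 3, with adjusted p up to 0.169. It was also not called without the filter, with the adjustment undone, or with the term for libraries 12 to 15. Over all alternatives the slope lay between 0.42 and 0.78, with adjusted p up to 0.364 (limma). The call against FFA was lost without FFA replicate 1 or 3, without any single FCH library, and without NC replicate 3, FCL replicate 3 or FCM replicate 1, with adjusted p up to 0.255. With the adjustment of FCH replicate 3 undone the change was 0.68 (adjusted p = 0.0573), and with a term for libraries 12 to 15, which only the distance of FCM replicate 3 from the other FCM libraries can estimate, it was 0.45 (0.248).

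PSMA5 (ENSG00000143106), an alpha ring subunit, had 21.2, 21.4 and 25.9 TPM in NC, 26.2, 25.7 and 23.2 in FFA, 23.9, 31.0 and 20.4 in FCL, 23.6, 23.3 and 29.2 in FCM, and 36.4, 36.1 and 35.7 in FCH. The FCH libraries again exceeded all others, and FCM replicate 3 exceeded the other FCM libraries. It rose by 0.64 against NC (SE 0.15, adjusted p = 0.0208, limma) and was not called against FFA (0.51, adjusted p = 0.130). The call against NC was lost without NC replicate 1 or 2 or any single FCH library, and with the term for libraries 12 to 15 the change was 0.34 (adjusted p = 0.568). With the adjustment undone it was 0.64 (0.0267).

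The 14 members that were lower in FCH without overlap were PSMA1, PSMA6, PSMB1, PSMB2, PSMB4, PSMB7, PSMC6, PSMD5, PSMD8, PSMD13, PSMD14, PSME1, PSMG1 and PSMG2. Of these PSMA6, PSMA1, PSMD5, PSMD8, PSMD13 and PSMG2 had an unadjusted p under 0.05, with changes between -0.68 and -0.22, and none was called. PSMC6, PSMD14 and PSME1 were apart only as deposited. With the adjustment undone FCH replicate 3 had 11.4, 21.8 and 153 TPM of them, above the lowest FFA libraries at 9.87, 18.4 and 148 TPM. PSMA1 had 85.3, 73.2 and 73.0 TPM in FFA and 62.2, 57.9 and 62.5 in FCH (-0.33, SE 0.14, adjusted p = 0.286, limma). The 6 members higher without overlap were PSMC3, PSMA5, PSMB10, PSMC4, PSMD4 and PSMG3. Among them were the ATPase PSMC4, with 114, 110 and 101 TPM in FFA and 140, 124 and 132 in FCH, and the ubiquitin receptor PSMD4, with 185, 192 and 171 TPM in FFA and 225, 211 and 210 in FCH. Their changes of 0.28 (SE 0.11, adjusted p = 0.261, limma) and 0.24 (SE 0.09, adjusted p = 0.258) were not called. The 6 ATPases summed to 512 ± 44.2 TPM in FFA and 627 ± 19.5 in FCH (mean ± SD, n = 3), and the lowest FCH sum of 608 TPM was above the highest sum of any other library, 592 TPM in FCL replicate 2. PSMC3 accounted for most of that difference. PSMC1 is less certain than the other ATPases, because its copy PSMC1P5 was listed at 19.4 TPM in NC replicate 2, 58.3 in FCM replicate 2, 10.4 in FCH replicate 2 and 0 in the other 12 libraries, and PSMC1P1 lay between 0.0279 and 16.8 TPM.

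FCM and FCH were set side by side after their values were known. Limma called none of the 44 genes between them, and 0.0154% of all tested genes. At an unadjusted p under 0.05 were 10 members (22.7%, against 9.97%), 9 higher in FCH and PSMA6 lower. PSMA3 was 0.79 higher in FCH (SE 0.18, adjusted p = 0.104) and PSMD12 0.79 higher (SE 0.26, adjusted p = 0.295).

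Each C3R group was also compared with NC, the same NC libraries serving all of these comparisons and FFA. In FCL 4 genes were called (9.09%, beside 9.07% of all tested genes, 6.51% higher and 2.56% lower): PSMF1 rose, and PSMA3, PSMG4 and PSMB10 fell. In FCM 7 were called, all lower (15.9%, beside 13% of all tested genes, 6.34% higher and 6.7% lower). They were PSMA3, PSMA4, PSMC6, PSMD12, PSMD14, PSME1 and PSMA1. PSMA4, an alpha ring subunit, had 93.8, 114 and 136 TPM in NC and 72.4, 72.1 and 43.2 in FCM, and fell by 0.88 (SE 0.20, adjusted p = 0.0105, limma). PSMA1, of the same ring, had 73.6, 93.6 and 81.7 TPM in NC and 71.98, 55.1 and 54.2 in FCM, just apart, and fell by 0.46 (SE 0.14, adjusted p = 0.0466). After the GC and length trend was taken out PSMA4 changed by -0.40 (0.0632) and PSMA1 by -0.07 (0.710), and neither was called. The calls of PSMA3, PSMC6, PSMD12, PSMD14 and PSME1 in FCM against NC were kept. Leaving out NC replicate 3 ended the calls of all named falls in FCM but those of PSMA3, leaving out NC replicate 2 those of PSMD12, PSMD14, PSME1 and PSMA1, and leaving out NC replicate 1 that of PSME1. In FCH 3 were called (6.82%, beside 5% of all tested genes, 3.02% higher and 1.98% lower): PSMC3 and PSMA5 rose, and PSME1 fell. The fall of PSME1 was kept in 9 of 26 alternatives and was -0.39 (adjusted p = 0.0758) with the adjustment of FCH replicate 3 undone.

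Of 13 subunits, assembly factors and partners of the proteasome that are not named PSM, 2 rose in FFA against NC, beside 5.47% of all tested genes: AKIRIN2, which carries proteasomes into the nucleus, by 0.45 (adjusted p = 0.0476, limma), and ZFAND5, which activates the proteasome, by 0.83 (0.0426). Their median change was 0.11, against 0.061 over all tested genes. POMP, the chaperone that matures the core, had a mean of 32.5 ± 1.73 TPM in NC, 26.3 ± 2.76 in FFA, 24.0 ± 5.23 in FCL, 17.7 ± 7.08 in FCM and 18.6 ± 1.47 in FCH (SD, n = 3). It fell by 0.92 in FCM against NC (SE 0.24, adjusted p = 0.0219), and its changes of -0.30 in FFA against NC (adjusted p = 0.524) and -0.62 in FCM against FFA (0.166) were not called. POMP has a GC content of 34.3%. The ubiquitin receptor ADRM1 changed by 0.11 in FFA (adjusted p = 0.649). Against NC, FCM also had lower SEM1, UCHL5 and ECPAS, by 0.73, 0.91 and 0.66. These are a small cap subunit, a deubiquitinase of the cap and a proteasome scaffold, with GC contents of 44.6%, 40.2% and 44.4%. In that comparison 4 of the 13 were called lower and 1 higher, beside 6.7% and 6.34% of all tested genes. None of the 13 was called in a C3R group against FFA, beside 0.00772%, 1.9% and 0.193% of all tested genes in FCL, FCM and FCH.

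Of 8 genes that control proteasome genes, 3 rose in FFA against NC, all of them partners that NFE2L1 and NFE2L2 bind DNA with: MAFG by 0.83 (adjusted p = 0.00371, limma), MAFK by 0.75 (0.0120) and MAFF by 0.66 (0.0206). Over all tested genes 5.47% were called higher. The median change of the 8 was 0.56, against 0.061 over all tested genes. NFE2L1 itself had 129 ± 12.4 TPM in NC and 178 ± 24.0 in FFA, a change of 0.45 that was not called (SE 0.16, adjusted p = 0.0987) and was 0.55 in FCL against NC, which was called (0.0411). NFE2L2, the oxidative stress factor, had 4.37 ± 1.70 TPM in NC, 7.47 ± 1.69 in FFA and 2.85 ± 0.852 in FCM. Its changes of 0.69 in FFA against NC (adjusted p = 0.161) and -1.14 in FCM against FFA (0.0526) missed the threshold. None of the 8 was called in a C3R group against FFA, beside 0.00772%, 1.9% and 0.193% of all tested genes in FCL, FCM and FCH. Members with TGACNNNGC had a median change of 0.01 in FFA against NC, as had those without (0.01).

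RPS27A, which encodes ubiquitin fused to a ribosomal protein, fell by 0.66 in FCL against NC (SE 0.14, adjusted p = 0.00741, limma) and by 0.58 in FCM (0.0134). UBB, a polyubiquitin gene, rose by 0.32 in FCH against NC (SE 0.09, adjusted p = 0.0490). None of the 9 shuttle and VCP genes was called in FFA against NC by limma, beside 7.37% of all tested genes. None had an unadjusted p under 0.05, against 21.5% of all tested genes. All 9 changes were above 0 (57.9% of all tested genes), with a median of 0.25, against 0.061 over all tested genes. RAD23B, a shuttle of ubiquitin chains, fell by 0.55 in FCM against NC (adjusted p = 0.0367, limma).

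Of 11 genes of MHC class I presentation, the pathway that PSMB10 and PSME1 serve, 2 rose in FFA against NC, HLA-C by 0.62 (adjusted p = 0.00506, limma) and B2M by 0.53 (0.0227), beside 5.47% of all tested genes called higher. All 11 changes were above 0 with a median of 0.35, and 57.9% of all tested genes had a change above 0. TAP1, the peptide transporter, changed by 0.41 (adjusted p = 0.0667) and rose in FCL by 0.60 (0.00912) and in FCM by 0.46 (0.0315) against NC. IRF1, a transcription factor of interferon signalling, rose by 1.01 in FCL and by 0.93 in FCM against NC. In FFA against NC it changed by 0.64 (adjusted p = 0.160, limma), not called, with every FFA library above NC. From FFA to FCL it changed by 0.37 (adjusted p = 0.901, limma). HLA-C was called higher than NC in all 4 groups given fatty acids. No gene of the list was called in a C3R group against FFA, beside 0.00772%, 1.9% and 0.193% of all tested genes in FCL, FCM and FCH.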

How the data were processed

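Polyadenylated RNA went into stranded Illumina libraries, per the labels' protocols. Per the labels, the authors aligned reads with HiSat2 to an Ensembl human genome and estimated expression with RSEM; no version, annotation release or strand setting is given in the sources used here. The deposited values are TPM, relative to all transcripts of a library. They summed to between 1001311 and 1001313 in 14 libraries and to 990018 in FCH replicate 3. The offsets of 12775 genes, the 44 members included, fitted a mean-only batch adjustment of FCH replicate 3, which no label or header records: undone, 99.99% of values lay within 0.0005 TPM of whole multiples of 0.01 TPM. The deposited values were used, and the undone ones served as an alternative.

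Genes with 1 TPM in at least 3 libraries entered 1 limma fit (limma 3.58.1, R 4.3.3) of log2(TPM + 1), a scale that understates changes of low genes, with a mean per group over all 15 libraries and a variance trend. The fit was tested on simulated data. Tests were two-sided, with Benjamini-Hochberg adjustment over all 12950 tested genes in each comparison. The dose slope used the 12 libraries given fatty acids. Shares of subunit pairs were compared with exact permutation tests (SciPy 1.17.1). GC content and length came from GENCODE transcripts. Alternatives were another pseudocount (0.1), no filter, a mean of 5 TPM, 2 scalings, a replicate block, the compared groups only, array weights, a term for libraries 12 to 15, the undone adjustment, removal of the GC and length trend, and leaving out each library.

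The genes and lists were chosen with earlier results of these data known. Named were up to 12 called members of each comparison and a panel: PSMB5, PSMB6, PSMB7, PSMB8, PSMB9, PSMB10, PSMA7, PSMC4, PSMD4, PSMD11, PSMD14, PSME1, PSME2, PSME3, PSME4, PSMF1, PSMG1 and PSMD10. From each of 5 pathway lists came up to 4 called genes a comparison with the smallest p, with NFE2L1, NFE2L2, POMP, ADRM1 and TAP1. Counts over the list of ubiquitin genes, and some of its genes, are not reported here. PSMA2, PSMB2, PSMB3, PSMB4, PSMC1, PSMC5, PSMD1, PSMD2, PSMD5, PSMD6, PSMD7, PSMD8, PSMD13, PSMB1, PSMG2 and PSMG3 were named after their values were seen.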

Additional observations from a re-analysis of the deposited data

How the results depend on the processing

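The counts of called proteasome genes were small, and most moved with the settings. For FFA against NC, FCM against FFA, FCH against FFA and the dose slope they were 2, 2, 1 and 1, and without the filter on low values 1, 0, 0 and 0. Median-of-ratios scaling gave 5 in FCM against FFA, 2 in FCH against FFA, 8 in FCL against NC, 1 in FCH against FCM and 2 for the slope. Quantile normalization gave 4 in FCM against FFA, 2 in FCH against FFA, 11 in FCL against NC, 13 in FCM against NC and 2 for the slope. Fits of the compared groups alone gave 0 in FCM against FFA, 5 in FCH against FFA, 0 in FCL against NC, 1 in FCM against NC and 7 in FCH against NC. Array weights gave 8 in FFA against NC, 7, 11 and 17 in FCL, FCM and FCH against FFA, 20, 22 and 23 in these groups against NC, 34 in FCH against FCM and 16 for the slope. The term for libraries 12 to 15 gave 0 in FCM against FFA, FCH against FFA, FCH against NC and the slope, and 2 in FCH against FCM. With the adjustment of FCH replicate 3 undone FCM against FFA had 1, and FCH against FFA and the slope 0. With the GC and length trend removed the counts were 4 in FFA against NC, 0 in FCM against FFA, 4 in FCH against FFA, 7 in FCL against NC, 11 in FCM against NC, 2 in FCH against FCM and 4 for the slope. No filter gave 4 in FCM against NC. The causes of these shifts were not tested.

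Leaving out 1 library at a time gave 0 to 3 calls in FFA against NC, 0 in FCL against FFA, 0 to 5 in FCM against FFA, 0 to 2 in FCH against FFA, 0 to 5 in FCL against NC, 1 to 10 in FCM against NC, 0 to 4 in FCH against NC, and 0 to 1 in FCH against FCM and for the slope. Replicate numbers did not pair the libraries: same-numbered libraries of different groups correlated between -0.35 and 0.154 in their deviations from the group means (30 pairs), and none correlated best with its own number. With a replicate block FCM against FFA had 1 call and the slope 0. The difference in PSMB10 share stayed between -4.84 and -4.39 points for FFA against NC and between 3.22 and 3.68 for FCH against FFA when a library was left out.

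Of 20 called values, 365 of 517 alternatives kept the call and 152 lost it, none with a turned sign. Of 3531 alternatives of 138 uncalled values, 88 gained a call and 193 turned the sign without a call. With 3 libraries a group and unknown depth, the typical change that an interval of a member could hold either way was 0.31 on the log2 scale.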
